A study of Mus musculus with 6 samples.

Results

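The genes described here are Nmrk2, Nampt, Nmnat1, Nmnat3, Nadk, Art1, Art3, Art5 and Cd38. They make NAD or NADP, break NAD down or belong to a family of enzymes that use NAD to mark proteins. Their messenger RNA was measured in whole hearts of 10-day-old mice, 3 of them wild type and 3 without miR-1-2, a gene for the muscle microRNA miR-1, with 1 array per heart. The sources used here do not give the strain, the litters or how the deletion was made. Members were taken as every probe set whose annotated symbol is one of these names, and 17 of 45037 probe sets met this, covering 8 of the 9 genes. Cd38, a cell surface enzyme that breaks down NAD, had no probe set named for it in the annotation used and was not analysed here. Art1 and Nmrk2 were chosen because their values differed between these same hearts, so their differences are given as a description with no test. The other 6 genes, with 13 probe sets, were chosen by function, with earlier results of these data known.

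NAD carries electrons between metabolic reactions and is also consumed by enzymes that cut it, so cells remake it constantly. Most of it is recycled from nicotinamide through Nampt, the rate-limiting enzyme of that route, which makes nicotinamide mononucleotide. The nicotinamide riboside kinases Nmrk1 and Nmrk2 make the same intermediate from a vitamin form, and Nmrk2 is the kinase of skeletal muscle and heart. Nmnat1 in the nucleus and Nmnat3 in mitochondria turn the intermediate into NAD, and Nadk phosphorylates NAD to NADP. Art1, Art3 and Art5 belong to a family of ectoenzymes related to bacterial toxins. Art1 sits on the muscle cell surface and transfers ADP-ribose from NAD to arginines of other proteins, integrin alpha 7 (Itga7) among them. Art5 is a secreted relative, and Art3 lacks the residues needed for this reaction.

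Art1 and Art5 lie next to each other on mouse chromosome 7, head to head, with start positions 1514 bases apart in the RefSeq promoter table. The 250 bases before the start are shown for this pair, which share an intergenic region, and for Nmrk2, the gene with the opposite difference. They come from RefSeq, build GRCm38.p6, and read 5′ to 3′ along the gene. Capitals mark TATAAA and the E-box CAGCTG.
Art1, chr7:102101493-102101742, plus strand: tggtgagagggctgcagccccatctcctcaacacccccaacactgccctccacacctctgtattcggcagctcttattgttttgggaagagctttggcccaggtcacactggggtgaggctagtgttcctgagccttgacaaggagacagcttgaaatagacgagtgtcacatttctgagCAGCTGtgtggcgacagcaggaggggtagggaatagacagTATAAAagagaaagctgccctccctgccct
Art5, chr7:102100230-102100479, minus strand: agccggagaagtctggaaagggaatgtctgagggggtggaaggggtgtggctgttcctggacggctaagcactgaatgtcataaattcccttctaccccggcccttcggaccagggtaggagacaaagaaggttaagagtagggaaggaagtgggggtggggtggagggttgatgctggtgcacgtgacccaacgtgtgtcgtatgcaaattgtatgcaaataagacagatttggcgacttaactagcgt
Nmrk2, chr10:81202038-81202287, minus strand: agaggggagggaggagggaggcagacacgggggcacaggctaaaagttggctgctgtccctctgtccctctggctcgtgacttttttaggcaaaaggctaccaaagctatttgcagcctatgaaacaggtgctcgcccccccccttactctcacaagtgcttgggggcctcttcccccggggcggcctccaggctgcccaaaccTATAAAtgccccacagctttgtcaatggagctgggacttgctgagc

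Both strands of each window were searched, and the same was done for 32851 such windows of the table. TATAAA was present in the Art1 and Nmrk2 windows, with its first base 30 and 46 bases before the start, and not in that of Art5. It occurred in 12.4% of all windows. CAGCTG, a form of the E-box bound by muscle basic helix-loop-helix factors, was present in the Art1 window and not in those of Art5 and Nmrk2, and in 13.0% of all windows. The windows of the other members are not shown, and matches in Cd38 were not looked up. Among the rest, Nampt held CAGCTG, 105 bases before the start. Art3 held TATAAA in 2 windows, in 1 of them at 30 bases as in Art1. Every CAGCTG is also a match to CANNTG, which 66.2% of windows held and which was present in all 3 shown. A MEF2 site and a CArG box, searched by their consensus, occurred in 2.92% and 1.47% of all windows and in none of the 3. These matches are descriptions of letters. Longer gene models of Art1 and Nmrk2 in the reference begin inside the windows shown.

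Values are log2 expression summarised per probe set by RMA, a method that corrects background, brings all arrays to one distribution and combines the probes. Levels of different probe sets are not comparable as amounts, and differences near the bottom of the scale are compressed. Array medians lay between 6.03 and 6.11. The lower quartile of all probe set means was 4.78, and 1 of the 17 probe sets described here lay below it. All 14 cardiomyocyte markers lay above it, Myh6 between 14.31 and 14.40. Xist stood between 11.91 and 12.19 in the wild-type hearts and knockout replicate 2, and at 7.55 and 7.57 in knockout replicates 1 and 3, so the sexes were not balanced and knockout replicate 2 is the one that matches the wild-type hearts in sex. Ucp1, a brown fat gene, stood at 9.45 in the first wild-type heart and 10.39 in the first knockout heart, and no higher than 6.68 elsewhere. In whole hearts, fewer cells of a type and less RNA per cell cannot be told apart.

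Art1 was lower in the knockout hearts on its brighter probe sets and barely differed on the third. Probe set 1451372_a_at stood at 8.36, 7.14 and 7.41 in wild type and at 5.497, 5.81 and 5.001 in knockout. The groups lay 1.33 log2 units apart, and wild-type replicate 1 was well above the other hearts. The means were 7.64 ± 0.64 (SD, n = 3) and 5.44 ± 0.41, a log2 difference of -2.20 ± 0.30 (SE), or 4.60-fold lower in knockout. Of all 45037 probe sets, 3 had a more negative difference, a rank that the choice of Art1 helped to set.

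The Art1 probe set with the highest mean, 1422375_a_at, gave a smaller difference in the same direction. It stood at 7.77, 7.42 and 7.38 in wild type and at 7.16, 6.83 and 6.91 in knockout. The groups were again apart, by 0.22, with replicate 1 highest within each. The difference was -0.56 ± 0.12 (SE), or 1.47-fold lower in knockout. The third probe set, 1424491_at, stood at 4.93, 4.92 and 4.97 in wild type and at 4.84, 4.97 and 4.69 in knockout, near the lower quartile of the arrays. Its groups overlapped, and the difference was -0.11 ± 0.09 (SE). So 2 of 3 Art1 probe sets kept the groups apart, and they differed from each other in size by a wide margin.

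The size of the Art1 difference was also described for the knockout heart with high Xist and without the first replicates. Knockout replicate 2, that heart, was 1.33 below the lowest wild-type heart on 1451372_a_at and 0.54 below it on 1422375_a_at. With replicates 2 and 3 only, the differences were -1.87 and -0.53. Leaving out each array in turn gave -2.45 to -1.84 for 1451372_a_at and -0.65 to -0.43 for 1422375_a_at. On both probe sets the groups were apart, so the direction of all these values was fixed in advance and only their size is described.

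**Figure D1:**
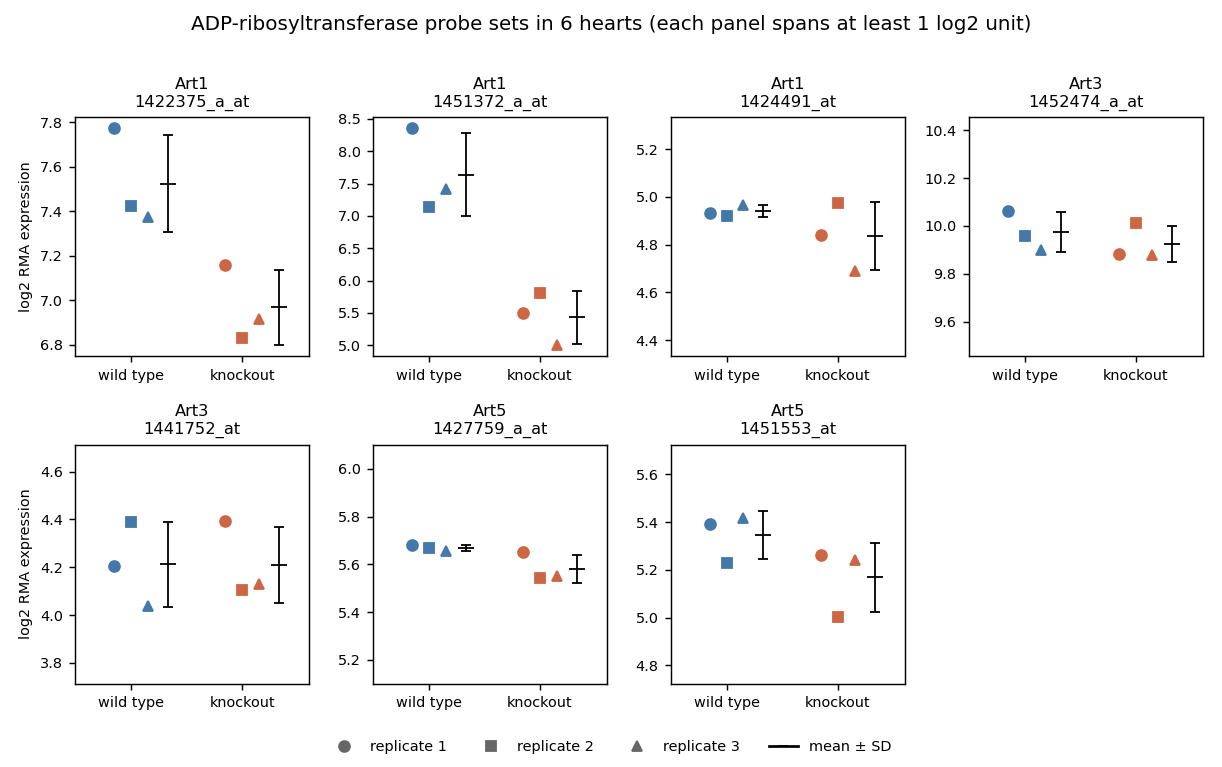
Log2 RMA expression of the 7 Art1, Art3 and Art5 probe sets, with a panel for each and a vertical axis of its own. Symbols are the 3 replicates of wild type (blue) and knockout (orange), and bars are the mean ± SD. The knockout hearts lie below all wild-type hearts for Art1 1422375_a_at and 1451372_a_at and, by 0.0065, for Art5 1427759_a_at.

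Art5, the neighbour of Art1, was slightly lower in knockout on both of its probe sets, and neither passed. Probe set 1427759_a_at stood at 5.68, 5.67 and 5.66 in wild type and at 5.65, 5.54 and 5.55 in knockout. The groups were apart by only 0.0065, and the difference was -0.086 ± 0.070 (SE; limma, adjusted p = 1.00). Probe set 1451553_at stood at 5.39, 5.23 and 5.42 in wild type and at 5.26, 5.002 and 5.24 in knockout, with overlapping groups and a difference of -0.18 ± 0.09 (SE). Their means, 5.62 and 5.26, lay above the lower quartile and below 6.06, the median of all probe set means. Whether compression made these differences smaller was not tested.

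Art3 showed no difference of a size these arrays could resolve. Its bright probe set, 1452474_a_at, stood at 10.06, 9.96 and 9.90 in wild type and at 9.88, 10.01 and 9.88 in knockout. The groups overlapped, and the difference was -0.051 ± 0.079 (SE). The other probe set, 1441752_at, is the one below the lower quartile, between 4.04 and 4.39 in all hearts, and its difference was -0.0026 ± 0.1124 (SE). Within the family the differences thus ran from -2.20 for an Art1 probe set to -0.0026 for Art3, and all 7 were at or below 0. With the Xist level as a covariate, 2 of the 7 turned positive, at 0.027 for Art1 1424491_at and 0.029 for Art3 1452474_a_at, and with a further quantile normalization Art3 1441752_at stood at 0.0084.

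Among the 5 protein-coding genes on either side of Art1, olfactory receptors left out, those measured besides Art5 were Rnf121, Trpc2, Nup98, Pgap2, Rhog and Stim1. Their differences ran from -0.14 for Pgap2 to 0.034 for Stim1, and the groups of all 6 overlapped. Chrna10, which lies inside the Art1 gene model, was not analysed here.

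Nmrk2 was higher in the knockout hearts. It has a single probe set, 1453898_at, which stood at 7.63, 7.70 and 7.64 in wild type and at 7.98, 7.89 and 7.98 in knockout. All knockout hearts lay above all wild-type hearts, by at least 0.19, and the spread within each group was small. The means were 7.66 ± 0.04 (SD, n = 3) and 7.95 ± 0.05, a difference of 0.29 ± 0.07 (SE), or 1.23-fold higher in knockout. Knockout replicate 2 was 0.24 above the wild-type mean, the difference was 0.27 with replicates 2 and 3 only, and it ran from 0.28 to 0.32 when each array was left out in turn. With the groups apart, the direction of these values was fixed in advance.

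Nampt, at the rate-limiting step of salvage, was lower in knockout on its 2 brighter probe sets. Probe set 1455320_at stood at 7.81, 7.95 and 7.93 in wild type and at 7.71, 7.77 and 7.70 in knockout. Probe set 1417190_at stood at 7.33, 7.54 and 7.46 in wild type and at 7.11, 7.26 and 7.18 in knockout. On both, the groups were apart, by 0.036 and 0.070, and replicate 2 was the highest of each group. The differences were -0.17 ± 0.07 and -0.26 ± 0.08 (SE), or 1.13-fold and 1.198-fold lower, and neither passed (limma, adjusted p = 1.00 for both). With group means removed, these probe sets correlated at 0.90 over the 6 arrays, a description of 2 probe sets of 1 gene on shared arrays. The third, dimmer probe set, 1448607_at, stood at 5.30, 5.29 and 5.48 against 5.40, 5.28 and 5.26, with overlapping groups and a difference of -0.043 ± 0.083 (SE).

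The NAD-forming enzymes Nmnat1 and Nmnat3 had overlapping groups on all 4 of their probe sets. Nmnat1 1429819_at stood at 6.49, 6.42 and 6.36 in wild type and at 6.31, 6.51 and 6.64 in knockout, a difference of 0.063 ± 0.096 (SE). Nmnat1 1425773_s_at differed by -0.031 ± 0.087, with wild-type replicate 1 at 6.16 and the other hearts between 5.90 and 6.02. Nmnat3 1424899_at lay between 5.55 and 5.80 and 1432342_at between 5.08 and 5.29, with differences of 0.018 ± 0.087 and 0.033 ± 0.080 (SE). The sign of each of these 4 depended on which array was left out.

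Nadk, which makes NADP, was slightly higher in knockout. Probe set 1416248_at stood at 7.88, 8.01 and 8.04 in wild type and at 8.10, 8.15 and 8.20 in knockout. The groups were apart by 0.058, and replicate 1 was the lowest of each group. The difference was 0.17 ± 0.08 (SE), or 1.13-fold, and did not pass (limma, adjusted p = 1.00). Probe set 1416249_at stood at 6.96, 7.02 and 7.04 against 6.997, 7.15 and 7.17, with overlapping groups and a difference of 0.10 ± 0.08 (SE).

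**Figure D2:**
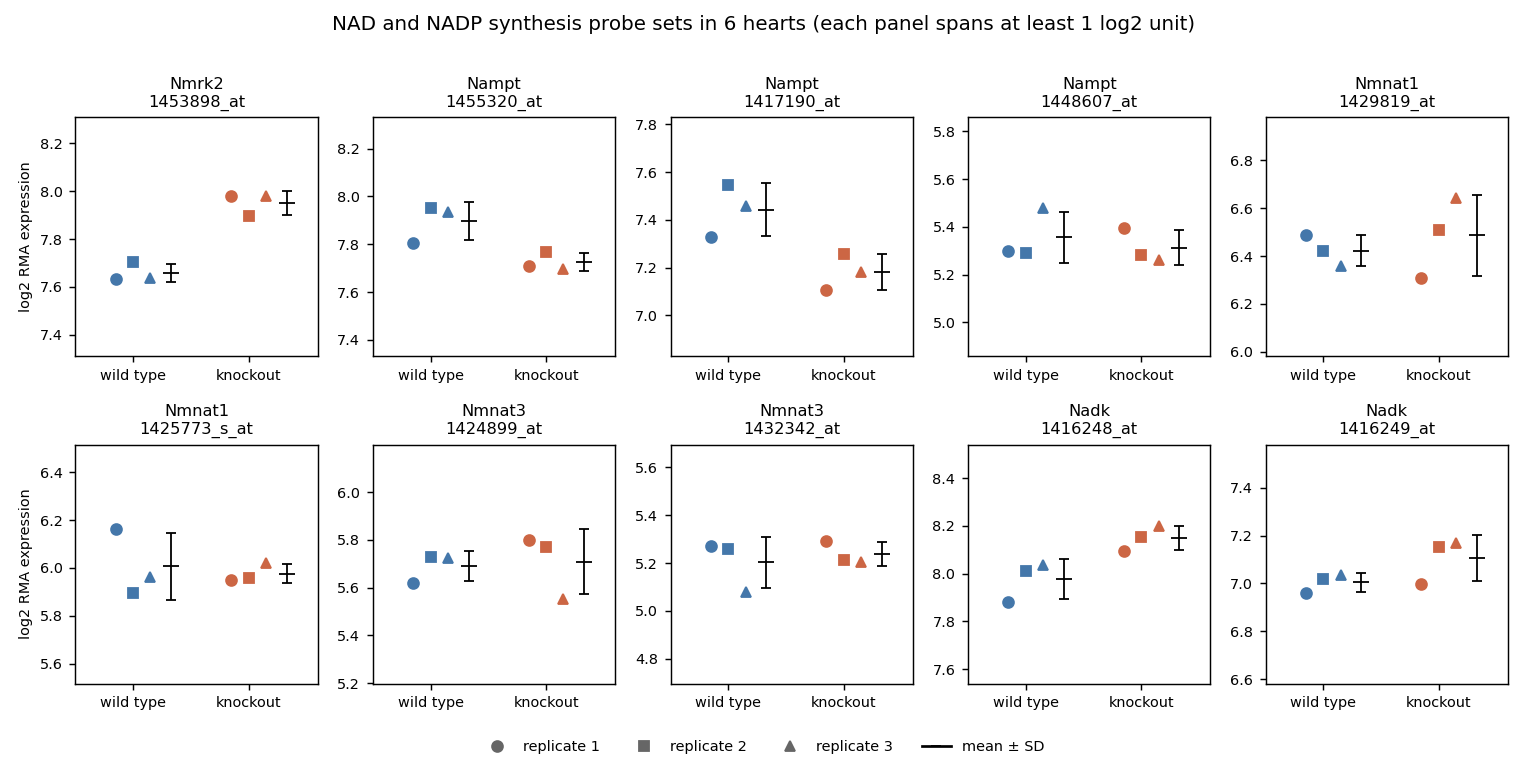
Log2 RMA expression of the 10 Nmrk2, Nampt, Nmnat1, Nmnat3 and Nadk probe sets, with a panel for each and a vertical axis of its own. Symbols are the 3 replicates of wild type (blue) and knockout (orange), and bars are the mean ± SD. Knockout hearts lie above wild type for Nmrk2 and Nadk 1416248_at and below for Nampt 1455320_at and 1417190_at.

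Of the 13 probe sets of the 6 genes not chosen for a difference, 0 passed in limma at an adjusted p of 0.05, where 0.00666% of all probe sets did. At an unadjusted p under 0.05 there were 3 (Nampt 1455320_at and 1417190_at and Nadk 1416248_at), against 3.94% of all probe sets. Groups were apart for 4 of the 13, of which 3 were lower and 1 higher in knockout. Over all probe sets the groups were apart in 8.7%, with knockout lower in 4.65% and higher in 4.05%. Of these 4 probe sets, 2 belong to Nampt and so are not separate observations. The median absolute difference of the 13 was 0.063, and that of all probe sets was 0.063. Counting Art1 and Nmrk2, 7 of 17 had groups apart, a count that the choice of those genes helped to set. With the replicate number as a block, 1 of the 17 passed, Art1 1451372_a_at, where 0.0444% of all did. That fit was among the results that chose Art1, and nothing is read from it.

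**Figure D3:**
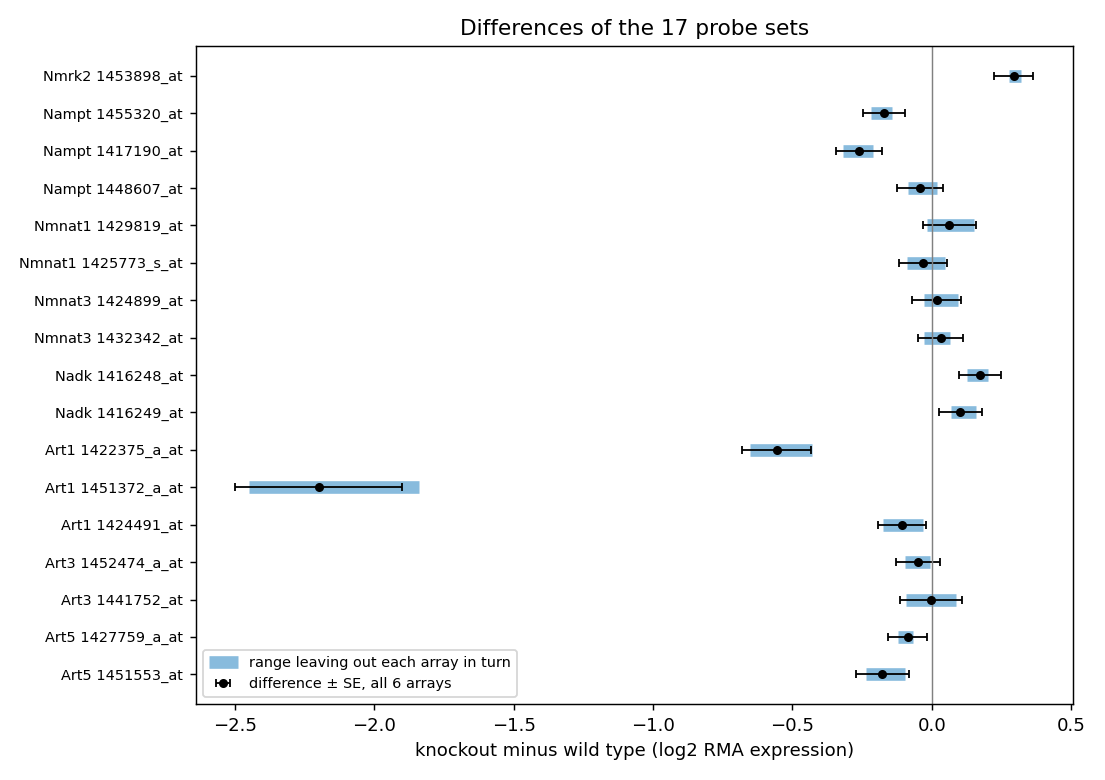
Knockout minus wild type in log2 RMA expression for all 17 probe sets, as points with SE bars. Pale bars span the values found when each of the 6 arrays was left out in turn. All Art1, both Art5, both Nadk and the 2 brighter Nampt probe sets, Nmrk2 and Art3 1452474_a_at keep their sign throughout. Of these, the groups overlapped for Art1 1424491_at, Art3 1452474_a_at, Art5 1451553_at and Nadk 1416249_at. For the rest the groups were apart, so leaving out an array could not change the sign.

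Other genes of NAD metabolism were taken from 4 lists and read with 1 probe set per gene, over which 0 of 18193 genes passed (limma) and 746 had an unadjusted p under 0.05. The median difference over all genes was 4.8e-04, with 9134 genes higher and 9059 lower. Groups were apart for 8.86% of all genes. In the list of other synthesis and salvage genes, 19 of 20 were measured, 10 were higher and 9 lower, 0 had groups apart and 0 had an unadjusted p under 0.05. The smallest p-values there belonged to Afmid, an enzyme of the route from tryptophan (0.23 ± 0.11, SE), Qprt, which feeds that route into NAD (-0.12 ± 0.09), and Slc25a51, the mitochondrial NAD carrier (0.11 ± 0.09). Nmrk1, the broadly expressed partner of Nmrk2, lay between 4.53 and 4.90 in all hearts and differed by -0.11 ± 0.10.

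Of 32 measured NAD-consuming and ADP-ribose genes, 24 were higher and 8 lower, with a median of 0.050, and 0 passed (limma). Groups were apart for 3, where 8.86% of all genes had groups apart, and all 3 were higher in knockout. Parp9, an interferon-linked member of the PARP family, stood at 7.80, 7.67 and 7.64 in wild type and at 7.84, 7.95 and 7.92 in knockout. Parp16, a PARP of the endoplasmic reticulum, differed by 0.28 ± 0.11 (SE), and Sirt4, a mitochondrial sirtuin, by 0.17 ± 0.07. These 3 were also the list's genes with an unadjusted p under 0.05.

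Of 16 measured NAD(P)-linked shuttle and dehydrogenase genes, 5 were higher and 11 lower, with a median of -0.050, and 0 passed (limma). Groups were apart for 3, where 8.86% of all genes had groups apart. These were Me1, Me3 and Slc25a13, all lower in knockout. The malic enzymes Me1 and Me3, which make NADPH, differed by -0.31 ± 0.10 and -0.21 ± 0.08 (SE) and were the list's genes with an unadjusted p under 0.05. Me1 stood at 9.64, 9.28 and 9.33 in wild type and at 9.11 in all knockout hearts. Slc25a13, a mitochondrial aspartate and glutamate carrier named after its values were seen, differed by -0.063 ± 0.065. Gpd2, of the glycerol phosphate shuttle, differed by 0.16 ± 0.09. Among 5 measured surface partners and substrates of Art1, Itga7 stood at 8.78, 8.76 and 8.62 in wild type and at 8.48, 8.51 and 8.63 in knockout. Its groups overlapped at a single pair of hearts, and the difference of -0.18 ± 0.08 did not pass (limma, adjusted p = 1.00). Dag1, the dystroglycan gene, differed by -0.051 with groups apart, and Lama2, a laminin chain, by 0.033.

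**Figure D4:**
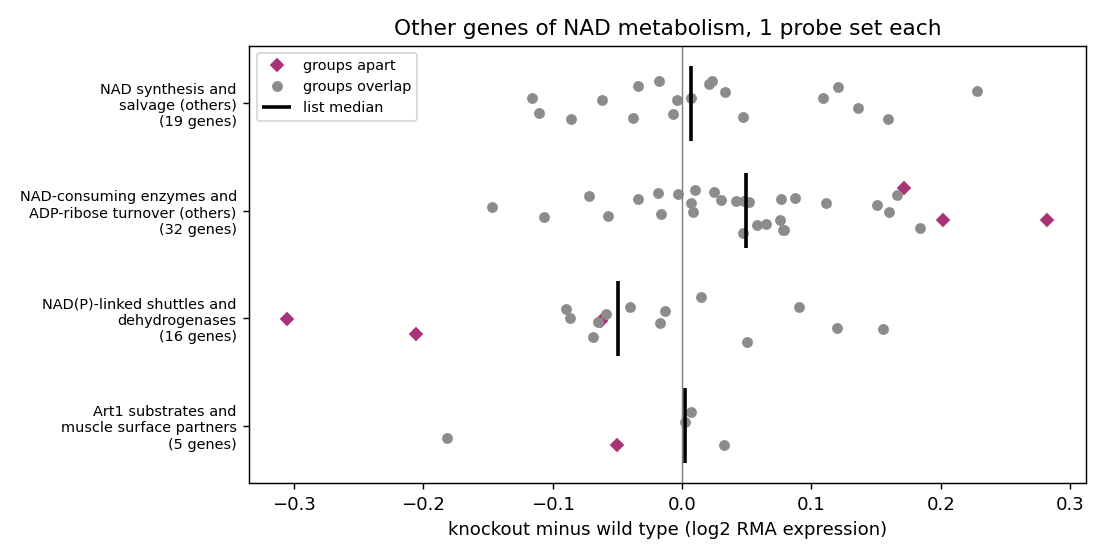
Knockout minus wild type in log2 RMA expression for the other genes of NAD metabolism, with 1 point per gene and a row per list. Black bars are list medians, diamonds are genes whose groups were apart and circles are the others. All points lie between -0.31 and 0.28.

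The genes most like Art1 and Nmrk2 across the 6 hearts were found by Pearson correlation among 8858 other genes with a mean at or above the median of all genes. These values describe 6 arrays that share the genotype difference by which both genes were chosen. For Art1 1422375_a_at they were Scamp3 (0.99), Lpin1 (0.99), Ckmt2 (0.99), Acyp2 (0.99) and Iigp1 (0.98). For Art1 1451372_a_at they were Rxrg (0.98), Ms4a7 (0.98), Abcg8 (0.98), Rhoq (0.97) and Hamp (0.97). For Nmrk2 they were Mov10l1 (0.99), Pml (0.98), Cox8a (0.97), Khdrbs3 (0.97) and Kptn (0.97). With group means removed, the closest were Lrrc39, Timm23, Arntl2, Emc7 and Kctd1 for the first, Paip2, Krt8, Pogk, Ctsc and Tmem38b for the second, and Prkar2a, Add2, Ttll12, Mib2 and Mrpl9 for Nmrk2. All these names are the highest of 8858 correlations over only 6 arrays, where high values arise by selection alone. Nothing is read from them.

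Since Art1 and Nmrk2 are also skeletal muscle genes, markers of other tissues were set beside them. Of 25 skeletal muscle markers, 10 were higher and 15 lower in knockout, 1 had groups apart (Musk, 0.065 higher, named after its values were seen) and 6 lay below the lower quartile, among them Myog (4.44 to 4.71) and Myf6 (4.43 to 4.59). Their summed linear level was 1660 to 1960 in wild type and 1628 to 1776 in knockout, overlapping ranges, highest in replicate 1 of each group. The differences ran from 0.13 for Myh8 to -0.42 for Myl1, which stood at 6.99, 6.02 and 6.40 in wild type and 6.26, 6.25 and 5.63 in knockout. Brown fat markers were higher in 6 of 12, at sums of 15122 to 16225 in wild type and 14506 to 17166 in knockout. Markers of lymphoid cells and thymus were lower for 12 of 14, at sums of 862 to 1062 and 817 to 946, overlapping ranges, highest in replicate 1 of each group. Myeloid markers were lower in 13 of 14, with sums of 2686 to 3457 in wild type and 2328 to 2704 in knockout and a median difference of -0.24. These ranges overlapped, and replicate 1 was again the highest of each group. The other wild-type hearts stood at 2686 and 2919. Groups were apart for 6 of these 14, where 8.86% of all genes had groups apart. An unadjusted p under 0.05 was found for 6 of the 14, where 746 of 18193 genes had one, and 0 passed (limma). Germ cell markers were lower in 5 of 8 with 6 below the lower quartile, and cardiomyocyte markers in 6 of 14. The part of these cells in the Art1, Nmrk2 and Nampt differences was not tested.

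**Figure D5:**
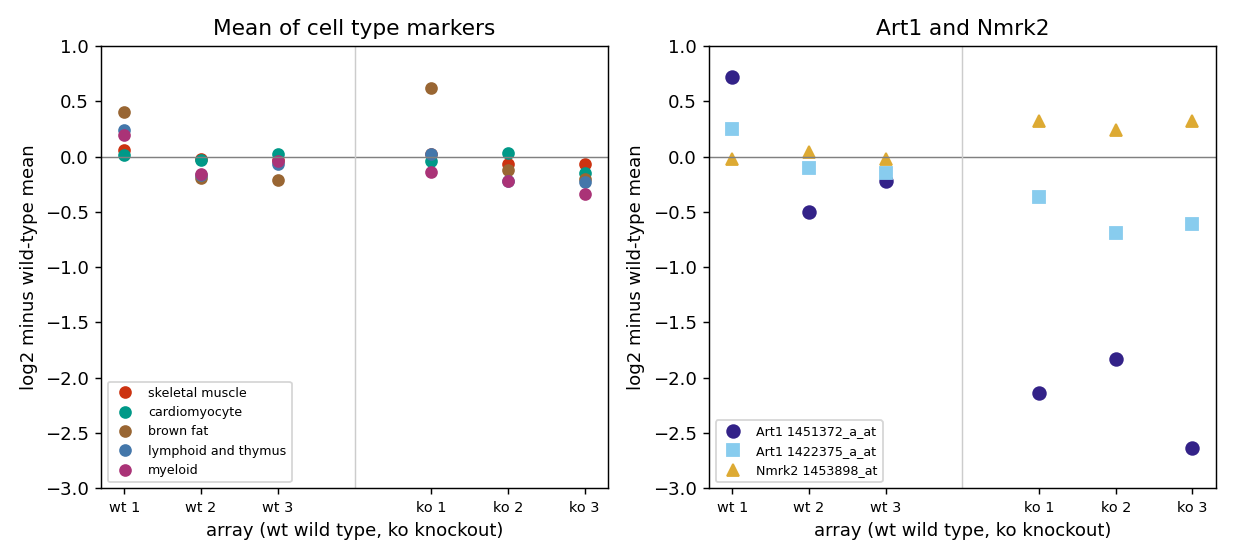
Left, mean log2 level of 5 cell type marker lists in each heart, relative to the wild-type mean. Right, Art1 and Nmrk2 probe sets on the same scale, with 1 point per heart. A list mean varies less than its single genes do, so the panels are not compared in size. The brown fat, skeletal muscle, lymphoid and myeloid lists are all highest in the first heart of each group, and the cardiomyocyte list is not. Brown fat stands at 0.62 in the first knockout heart.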

How the data were processed

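RNA of 6 hearts, taken up in Trizol, was amplified in a single biotin-labelling round, per the labels' protocols, and scanned with GCOS 1.4, per the submitters' processing notes. The authors deposited log2 values made with RMA in the affy package, per the series' design text, and the package version is not given in the sources used here. No depth exists for arrays. The 64 control probe sets were left out of 45101. Names came from the platform's annotation, brought up to date by identifier from RefSeq GRCm38.p6 (34945 named 1 gene, 932 several, 9160 none, and 34741 matched by identifier). Knockout was compared with wild type, grouped by title, with limma 3.58.1 in R 4.3.3 (lmFit, eBayes, Benjamini-Hochberg over all 45037 probe sets, threshold 0.05). A second fit took the brightest probe set of each of 18193 genes, for the lists. The steps were tested on simulated data.

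Members and lists were chosen with earlier results of these data known. All member probe sets are named. Of each of 4 pathway lists the 3 genes with the smallest p are named, and of marker lists only some members. The 5 genes most like Art1 and Nmrk2 are named by correlation. Acmsd, Parp10, Art2a, Art2b, Adprh, Adprhl1, G6pdx and Defa1 of the pathway lists were not analysed here. Titles share replicate numbers, with no statement of what they mark. Departures from the group mean correlated between arrays of one number at 0.54, 0.18 and 0.13 over genes and at 0.46, 0.15 and 0.087 over probe sets, so the condition of 0.1 was met over genes and not over probe sets. Over probe sets, wild-type replicate 2 correlated with knockout replicate 3 at 0.26, and wild-type replicate 3 with knockout replicate 2 at 0.23. Both values exceed those of the same numbers, so only replicate 1 stood out as a pair. Differently numbered arrays that include a first replicate ran from -0.32 to -0.25. Departures from a group mean cancel within the group, so these negative values follow from the 0.46 of the first pair and add nothing to it. The fit without a block was kept. The 16 alternatives are leaving out arrays or pairs, the replicate block, other variance models and weights, normalization, a filter on dim probe sets, the Xist level and the first replicates as a batch.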

Additional observations from a re-analysis of the deposited data

How the results depend on the processing

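With 3 arrays a group, the number of arrays limits every value. Over all probe sets 3 passed in limma. The count was 1 to 15 when each array was left out, 6 with trend and robust variance and 24 with array weights. It was 24 with the first replicates as a batch, 0 without dim probe sets (1357 at an unadjusted p under 0.05) and 0 with the Xist level as a covariate (3211). With the replicate block it was 20, and 3 to 55 when a pair was left out as well. The count of member probe sets that passed, 0 of 17 in limma, was 1 with the replicate block, 0 to 1 when a pair was left out as well, 1 with array weights and 2 with the first replicates as a batch. At an unadjusted p under 0.05 there were 6 of the 17, against 1773 of 45037 probe sets, and 3 of the 13 probe sets not chosen for a difference. Without the pair of replicate 1 or of replicate 3 the blocked fit called none. Without replicate 2, sex and genotype coincide. Leaving out any single array kept the count at 0. With 1 probe set per gene, 0 member genes passed, against 1 with the replicate block and 0 without any pair in it, 1 with the first replicates as a batch and 2 with array weights, where 416 of all genes passed. Every member called under these alternatives belonged to Art1 or Nmrk2, which were chosen because they differed in these hearts, so nothing is read from these counts. The cause was not tested.

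Art1 1422375_a_at and 1451372_a_at, Nmrk2, both Art5, both Nadk and the 2 brighter Nampt probe sets kept their direction in all 16 alternatives. For those with groups apart, leaving out or weighting arrays could not change it. The replicate block on all arrays, trend and robust variance, the dim filter and the first replicates as a batch leave the difference itself unchanged. So most of this outcome was fixed in advance. Nmrk2 differed by 0.24 with the Xist covariate and by 0.34 with the replicate block without replicate 2. Taking the mean of all probe sets in place of the brightest gave -0.95 for Art1 and -0.13 for Art5. Small differences of the other probe sets changed sign. Leaving out single arrays moved Nampt 1448607_at between -0.084 and 0.018, Nmnat1 1429819_at between -0.016 and 0.15, Nmnat1 1425773_s_at between -0.088 and 0.047, Nmnat3 1424899_at between -0.029 and 0.095, Nmnat3 1432342_at between -0.029 and 0.066 and Art3 1441752_at between -0.094 and 0.087. The replicate block without a pair took them to 0.045, -0.047, 0.060, -0.064, -0.013 and 0.14 in that order, and Art3 1452474_a_at to 0.015. Array weights gave 0.025 for Nmnat1 1425773_s_at and -0.093 for Nmnat3 1424899_at. A further quantile normalization gave 0.0084 for Art3 1441752_at, and the Xist covariate gave 0.029 for Art3 1452474_a_at.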
